A study of Mus musculus with 16 samples.

Results

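The genes described here are Nlrc5 and Ciita, the transactivators of the MHC class I and class II genes, and the subunits of the promoter-bound complex that they join: Rfx5, Rfxank and Rfxap of the RFX complex, Nfya, Nfyb and Nfyc of NF-Y, and Creb1 and Atf1 of the CREB/ATF family. They were chosen by symbol, 10 genes of the 15653 listed over the series' 3 tables. RNA had been sequenced from derivatives of B16F10, a mouse melanoma line, in 16 libraries. The groups were TDMa tumours carrying sgNlrc5 (4 libraries) or sgScramble (4), TDMa culture carrying sgNlrc5 (2) or sgScramble (2), and TDM culture carrying sgNlrc5 (2) or sgScramble (2). sgNlrc5 is a guide RNA directed at Nlrc5, and sgScramble is a control guide without that target. What the names TDM and TDMa stand for, the effector protein the lines carry, whether a line is 1 clone, and the host, age and number of tumour-bearing mice are not stated in the labels. Nor do they state that replicates came from different dishes or mice. The p-values therefore cover the spread between libraries, which may be technical. In the limma fits used here each gene's variance was also drawn toward that of genes of similar level, which weighs most with 2 libraries per guide.

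NLRC5 and CIITA belong to the NLR family of proteins and do not bind DNA by themselves. Both are recruited to a conserved promoter module, the SXY module, on which the RFX complex holds the X1 box, CREB/ATF proteins the X2 box and NF-Y the Y box, a CCAAT sequence read on either strand. CIITA is induced by interferon gamma in many cells and is constitutive in antigen-presenting cells, where it drives class II genes. NLRC5 drives class I heavy chains, B2m and parts of the peptide-loading pathway, and its loss is a known route by which tumours lower class I expression. RFX, NF-Y and CREB1 are expressed in most cell types and act at many other promoters.

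The module is shown in 3 target promoters, because complexes of these proteins are known to form on such promoters. Each is the 250 bases before the RefSeq gene start, 5′ to 3′ on the gene's strand, in build GRCm38.p6. They are H2-D1, a class I heavy chain, at chr17:35262844-35263093 on the plus strand, B2m, the class I light chain, at chr2:122147437-122147686 on the plus strand, and H2-Aa, a class II alpha chain, at chr17:34287824-34288073 on the minus strand. Capitals mark TGACG, the core of the CREB/ATF site, and CCAAT, each on either strand (CGTCA and ATTGG on the other), with overlapping matches of TGACG and CGTCA merged.
H2-D1: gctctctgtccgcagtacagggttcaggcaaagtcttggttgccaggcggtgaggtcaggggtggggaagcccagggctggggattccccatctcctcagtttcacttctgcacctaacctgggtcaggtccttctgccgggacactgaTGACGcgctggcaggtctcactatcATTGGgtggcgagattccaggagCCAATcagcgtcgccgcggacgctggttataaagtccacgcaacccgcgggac
B2m: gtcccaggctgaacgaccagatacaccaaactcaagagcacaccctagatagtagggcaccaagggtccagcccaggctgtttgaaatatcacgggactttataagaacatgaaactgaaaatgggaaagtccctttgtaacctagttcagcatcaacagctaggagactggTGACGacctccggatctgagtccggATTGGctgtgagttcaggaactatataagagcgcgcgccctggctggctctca
H2-Aa: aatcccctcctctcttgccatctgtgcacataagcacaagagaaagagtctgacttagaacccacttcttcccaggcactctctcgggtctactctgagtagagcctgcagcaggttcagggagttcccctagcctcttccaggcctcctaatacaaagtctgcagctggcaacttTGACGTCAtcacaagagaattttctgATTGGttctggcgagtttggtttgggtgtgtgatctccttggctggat

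In H2-D1 and in B2m 20 bases lay between the CREB/ATF core and the nearest CCAAT, and in H2-Aa 18 bases. The 250-base window held CCAAT in 33.8% of 32851 RefSeq promoters, TGACG in 17.8% and both in 6.12%. Of the 13 class I target promoters in that table, 12 held CCAAT, 9 held TGACG and 9 held both. Of 7 class II target promoters, 6 held CCAAT, and 1, that of H2-Aa, held TGACG as well. Among the transactivators and their partners, 7 had a promoter in the table, of which 2 held CCAAT, 1 held TGACG and none held both. A match here is a description of letters in a window and shows no binding.

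Values below are normalised counts, the reads of a gene divided by the library's size factor. Each table was normalised alone, so a level in one table is set beside that in another only as a description. Libraries had 12183889 to 16390886 reads over the listed genes. All 7 melanocyte markers were listed in every table (Mitf, Pmel, Tyr, Tyrp1, Dct, Mlana and Sox10), with summed levels of 597997 to 953576 in sgNlrc5 tumours and 565550 to 637913 in sgScramble tumours. A gene was called changed at a limma p-value adjusted over all tested genes below 0.05. The share of all tested genes called was 0.517% in TDM culture, 34.2% in TDMa culture and 39.4% in TDMa tumours, which is the background for the counts given below. In TDMa culture the calls were 2100 higher and 2056 lower, and with libraries scaled to equal sums 1643 higher and 2587 lower. Of the 10 genes, 9 were listed and tested in each culture table and 10 in tumours. Ciita was the gene missing from both culture tables, in which no gene with fewer than 20 reads summed over the 4 libraries was listed.

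Nlrc5 (ENSMUSG00000074151, chromosome 8), the gene that the guide targets, was higher with sgNlrc5 in all 3 tables. In TDM culture it had 57.4 and 78.6 normalised counts with sgNlrc5, against 22.9 and 12.7 with sgScramble. These rested on 51 and 83 reads with sgNlrc5 and on 26 and 12 reads with sgScramble. In TDMa culture it had 3146 and 3142 normalised counts with sgNlrc5, against 254 and 242 with sgScramble. In TDMa tumours it had 4381, 3434, 3655 and 4195 with sgNlrc5, against 837, 257, 559 and 656 with sgScramble. No sgScramble library reached an sgNlrc5 library of its table, and sgScramble replicate 2 was the lowest tumour. Separation in this direction was seen for 19.3% of all tested genes in TDM culture, 33.3% in TDMa culture and 18.1% in tumours.

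The ratio of means was 3.81 in TDM culture (68.0 ± 15.01 with sgNlrc5 and 17.8 ± 7.22 with sgScramble, SD, n = 2 each), 12.7 in TDMa culture (3144 ± 2.71 with sgNlrc5 and 248 ± 8.42 with sgScramble, n = 2 each) and 6.79 in tumours (3916 ± 445 with sgNlrc5 and 577 ± 243 with sgScramble, n = 4 each). On the log2(normalised count + 1) scale the guide effects were 1.91 ± 0.34 (SE, limma adjusted p = 0.012), 3.66 ± 0.061 (adjusted p = 5.3e-18) and 2.88 ± 0.28 (adjusted p = 3.1e-05), in that order. In TDM culture the call was lost when sgNlrc5 replicate 2 was left out (1.69, adjusted p = 0.087), and also when the variances were given no intensity trend (adjusted p = 0.38). The guide effect on Nlrc5 was larger in TDMa than in TDM culture, by log2 1.75 ± 0.26 (95% interval 1.21 to 2.29, limma interaction adjusted p = 1.4e-05), where 22.7% of genes were called for such a difference. Between tumours and culture of TDMa the difference was -0.79 ± 0.30 (interval -1.42 to -0.15, adjusted p = 0.052), where 36.6% of genes were called. It passed in 4 of 16 alternatives, which left out tumour sgScramble replicate 2, the lowest of its group (-1.13, adjusted p = 5.2e-05), left out tumour sgNlrc5 replicate 1 (-0.84, adjusted p = 0.049), kept genes with a mean of at least 50 (adjusted p = 0.041) or fitted the replicate block (adjusted p = 0.012).

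**Figure D1:**
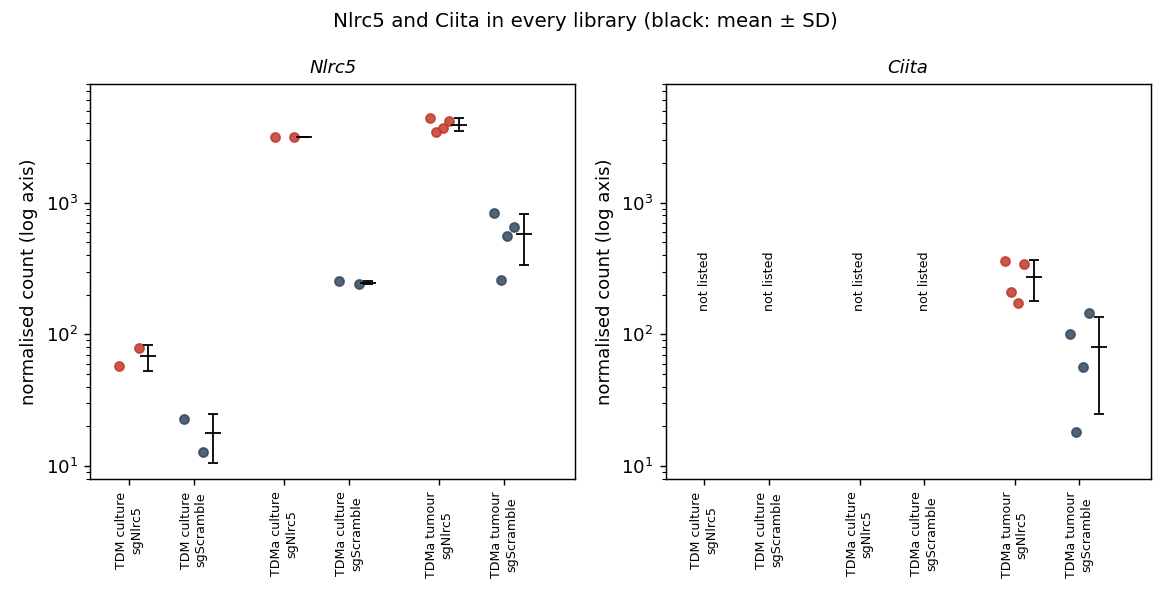
Normalised counts of Nlrc5 and Ciita on a log axis, 1 point per library, sgNlrc5 in red and sgScramble in dark blue, with the group mean ± SD in black beside the points; each table was normalised alone. The sgNlrc5 libraries lie above the sgScramble libraries wherever a gene was listed, and Ciita was listed in TDMa tumours only. Such separation held for 19.3% of all tested genes in TDM culture, 33.3% in TDMa culture and 18.1% in tumours.

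Per kilobase of exon, Nlrc5 changed its place among its partners with the guide. The length was that of all annotated exons of a gene and not of the transcript expressed. Genes are therefore compared only roughly on this scale. In tumours it had 461 ± 52.4 normalised counts per kilobase with sgNlrc5 (range 404 to 516), the highest of the 10 genes, against 67.9 ± 28.6 with sgScramble (range 30.2 to 98.5). With sgScramble the tumour order was Nfyc (341), Atf1 (329), Rfxap (171), Nfya (162), Nlrc5 (67.9), Nfyb (67.6), Creb1 (51.0), Rfxank (42.7), Rfx5 (24.9) and Ciita (8.42). Within that order Nfyc and Atf1, Rfxap and Nfya, and Nlrc5 with Nfyb and Creb1 lay within their spread over libraries. In TDMa culture Nlrc5 stood at 370 with sgNlrc5, between Nfyc at 379 and Atf1 at 314, and at 29.1 with sgScramble, between Rfxank and Rfx5. In TDM culture it was the lowest of the 9 listed genes with either guide, at 8.005 with sgNlrc5 and 2.10 with sgScramble. Rfx5, the large subunit of the RFX complex, was the lowest of the partners in every group, with means of 18.6 to 26.3 per kilobase.

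Ciita (ENSMUSG00000022504, chromosome 16) was higher in sgNlrc5 tumours. It had 360, 211, 175 and 342 normalised counts with sgNlrc5, against 99.97, 18.1, 56.7 and 146 with sgScramble. The groups did not overlap, as for 18.1% of tested genes with every sgNlrc5 tumour above every sgScramble tumour, although sgNlrc5 replicate 3 and sgScramble replicate 4 lay close together. The means were 272 ± 92.7 with sgNlrc5 and 80.3 ± 55.3 with sgScramble (SD, n = 4 each), a ratio of 3.39, and the guide effect was log2 2.03 ± 0.50 (SE, 95% interval 0.93 to 3.13, limma adjusted p = 0.0078). It passed in all 17 alternatives, and was 1.45 ± 0.32 (adjusted p = 0.0060) without sgScramble replicate 2. Nlrc5 exceeded Ciita in every tumour, by a ratio of normalised counts between 12.2 and 20.9 with sgNlrc5 and between 4.48 and 14.2 with sgScramble.

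Between the guides, markers of several immune cell types moved with Ciita and Nlrc5 in the tumours. All 8 macrophage markers rose, with summed levels of 11490 to 14689 normalised counts in sgNlrc5 tumours and 3019 to 4531 in sgScramble tumours. All 6 T cell markers rose, with sums of 230 to 875 in sgNlrc5 tumours and 42.0 to 63.6 in sgScramble tumours. Both tested NK cell markers, Klrk1 and Eomes, rose, as did Csf3r, the 1 tested neutrophil marker. The NK cell markers Ncr1 and Klrb1c and the neutrophil markers S100a9, Ly6g and Retnlg were not listed. Of the dendritic cell markers 1 of 3 tested rose, Itgax, which macrophages also carry, and the list summed to 331 to 572 in sgNlrc5 tumours and 221 to 264 in sgScramble tumours. Of the B cell markers Ms4a1 was not listed, none of the 1 tested rose, and the sums were 22.5 to 62.3 in sgNlrc5 tumours and 14.1 to 22.9 in sgScramble tumours. The sgScramble replicate 2 tumour was the lowest of the 8 for Nlrc5, Ciita and the class I, class II, macrophage and T cell sums. Among the sgNlrc5 tumours, replicate 1 was the highest for Nlrc5, Ciita and the class I, class II and T cell sums, and replicate 3 was the lowest for Ciita and the class I, class II and T cell sums. The macrophage sum ran otherwise within that group, with its highest value in replicate 3 (14689) and its lowest in replicate 4 (11490, with Ciita at 342). The part of these cells in the Ciita and Nlrc5 levels was not tested. In whole tumours fewer cells of a type and less RNA per cell cannot be told apart.

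**Figure D2:**
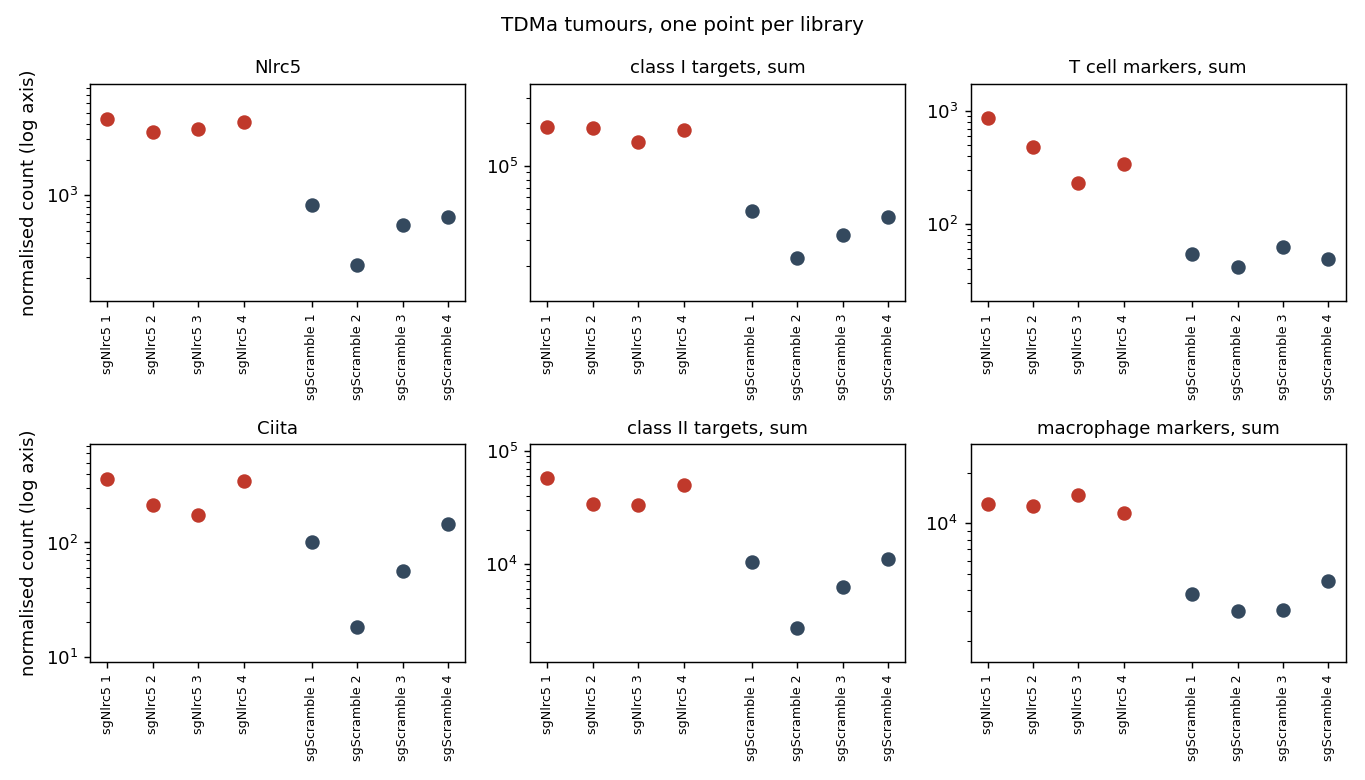
Normalised counts in each TDMa tumour on log axes, sgNlrc5 replicates 1 to 4 in red at the left of each panel and sgScramble replicates 1 to 4 in dark blue at the right, for Nlrc5, Ciita, the summed class I and class II targets, and the summed T cell and macrophage markers. The groups are separate in all 6 panels, and sgScramble replicate 2 is the lowest point of each.

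The tables of the cultures listed few of the immune markers. Cd68 was the sole macrophage marker listed in either, and it rose in TDMa culture by log2 0.52 ± 0.064 (adjusted p = 4.1e-06). Of the T cell markers, Cd3d alone was listed in TDM culture, at 565 ± 22.3 normalised counts with sgNlrc5 and 527 ± 56.1 with sgScramble (SD, n = 2 each), and none was listed in TDMa culture. Of the B cell markers, Cd79a was listed in TDMa culture, at 2.25 and 5.81 with sgNlrc5 and 8.61 and 8.56 with sgScramble. Of the 7 dendritic cell markers, Batf3 and Zbtb46 were listed and tested in both cultures. Batf3, a transcription factor of dendritic cells, fell in TDMa culture (-0.41 ± 0.14, adjusted p = 0.031), with 146 ± 6.02 with sgNlrc5 and 194 ± 10.01 with sgScramble. Csf1r, Cd3e and Cd8a were listed in neither culture.

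The RFX genes encode RFX5 and its partners RFXANK, an ankyrin-repeat protein, and RFXAP, which together bind the X1 box. Loss of any of them, or of CIITA, causes bare lymphocyte syndrome in humans. In TDM culture none was called. Rfxank had 145 and 152 normalised counts with sgNlrc5, against 176 and 169 with sgScramble (-0.21, 95% interval -0.52 to 0.10, adjusted p = 0.72), and the guide effects on Rfx5 and Rfxap were -0.05 (interval -0.41 to 0.31) and -0.01 (interval -0.23 to 0.21). In TDMa culture none was called either. Rfxank had 114 and 160 with sgNlrc5, against 172 and 166 with sgScramble (-0.32 ± 0.17, adjusted p = 0.15), and without sgNlrc5 replicate 2 it passed (-0.57, adjusted p = 0.029). Rfxap had 383 and 312 with sgNlrc5, against 319 and 297 with sgScramble (0.17 ± 0.11, adjusted p = 0.27), and Rfx5 was at 0.06 ± 0.18 (adjusted p = 0.82).

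In tumours Rfxap (ENSMUSG00000036615, chromosome 3) fell. It had 293, 303, 335 and 297 normalised counts with sgNlrc5, against 393, 338, 391.7 and 408 with sgScramble. The groups did not overlap, as for 19.1% of tested genes with every sgNlrc5 tumour below every sgScramble tumour, and the closest values were 335 with sgNlrc5 and 338 with sgScramble. The guide effect was log2 -0.31 ± 0.10 (SE, limma adjusted p = 0.028), a ratio of means of 0.803. The call ended in 7 of 17 alternatives, among them when any 1 of sgNlrc5 replicates 1, 2 or 4 or of sgScramble replicates 1, 3 or 4 was left out (adjusted p = 0.057 to 0.070). Rfx5 at 0.08 (interval -0.22 to 0.38, adjusted p = 0.68) and Rfxank at -0.16 (interval -0.43 to 0.12, adjusted p = 0.35) were not called. Compared with TDMa culture, the effect on Rfxap was lower in tumours by log2 -0.48 ± 0.16 (adjusted p = 0.023), and this ended without TDMa culture sgNlrc5 replicate 1 (-0.33, adjusted p = 0.088), without TDMa culture sgScramble replicate 2 (-0.43, adjusted p = 0.070) and without array weights (adjusted p = 0.051).

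NF-Y is a heterotrimer in which NFYB and NFYC pair through histone folds and NFYA contacts the CCAAT sequence. None of its genes was called in TDM culture. Nfyc had 1103 and 1008 normalised counts with sgNlrc5, against 953 and 911 with sgScramble, groups that did not overlap (0.18, interval 0.03 to 0.33, adjusted p = 0.46). In TDM culture 19.3% of tested genes had both sgNlrc5 libraries above both sgScramble libraries, and 19.3% had both below. Nfya was at 0.04 (interval -0.08 to 0.15) and Nfyb at 0.08 (interval -0.09 to 0.26).

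In TDMa culture Nfyc (ENSMUSG00000032897, chromosome 4) rose slightly and Nfya (ENSMUSG00000023994, chromosome 17) fell slightly. Nfyc had 1107 and 1122 normalised counts with sgNlrc5, against 966 and 984 with sgScramble, a guide effect of log2 0.19 ± 0.056 (adjusted p = 0.011). That call was lost on leaving out sgNlrc5 replicate 2 (adjusted p = 0.061), sgScramble replicate 1 (0.088) or sgScramble replicate 2 (0.056), and with no intensity trend (0.091). Nfya had 1727 and 1690 with sgNlrc5, against 1875 and 1842 with sgScramble, a guide effect of -0.12 ± 0.046 (adjusted p = 0.047), and leaving out any 1 of the 4 libraries ended its call (adjusted p = 0.082 to 0.20). Of the genes tested in TDMa culture, 33.3% had both sgNlrc5 libraries above both sgScramble libraries, as Nfyc did, and 33% had both below, as Nfya did. Nfyb overlapped, with 416 and 360 with sgNlrc5 and 378 and 371 with sgScramble (0.05, interval -0.16 to 0.25). Between TDMa and TDM culture the guide effects on Nfyc differed by 0.02 (interval -0.17 to 0.20, adjusted p = 0.93) and those on Nfya by -0.16 (interval -0.31 to -0.01, adjusted p = 0.11).

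In tumours no NF-Y gene was called. Nfya had 1080, 1087, 1075 and 1052 normalised counts with sgNlrc5, against 1242, 1257, 1156 and 1083 with sgScramble (-0.14 ± 0.077, adjusted p = 0.17). The sgNlrc5 tumours lay close together, and sgScramble replicate 4 fell among them. Nfyb had 276, 327, 311 and 271 with sgNlrc5, against 390, 355, 309 and 317 with sgScramble (-0.21 ± 0.11, adjusted p = 0.17). Nfyc had 828, 934, 1083 and 943 with sgNlrc5, against 1010, 1003, 1095 and 902 with sgScramble (-0.09 ± 0.098, adjusted p = 0.52). For Nfyc the difference of tumours from TDMa culture was -0.28 ± 0.11 (adjusted p = 0.067), and passed without tumour sgNlrc5 replicate 3 (-0.34, adjusted p = 0.021) or tumour sgScramble replicate 4 (-0.33, adjusted p = 0.039).

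**Figure D3:**
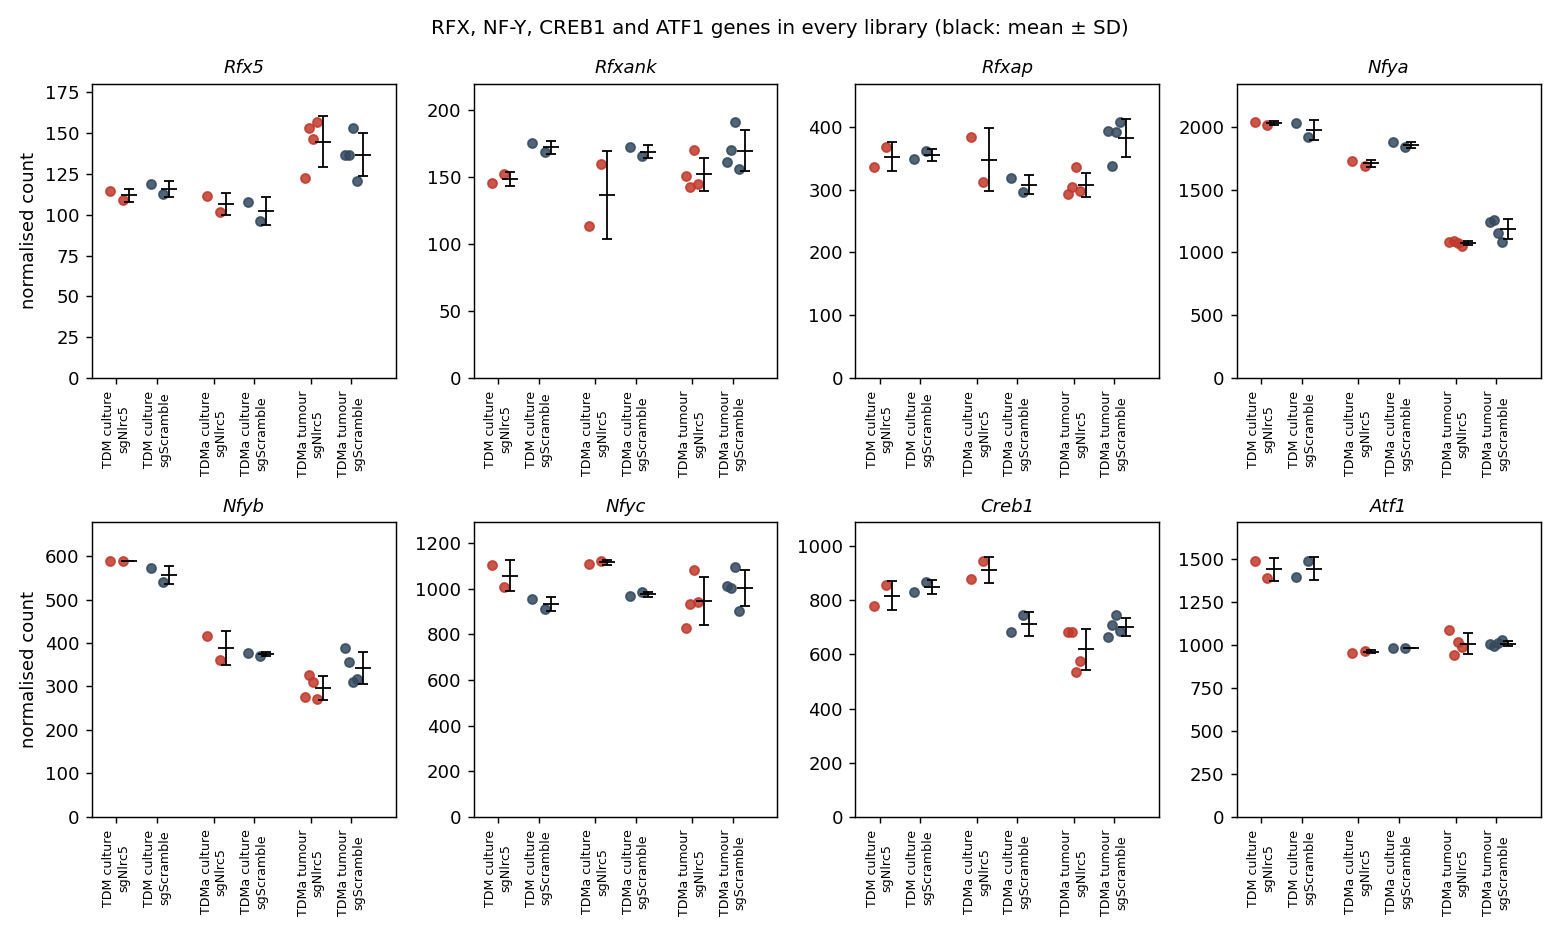
Normalised counts of the 8 promoter partners on linear axes that start at 0, 1 point per library, sgNlrc5 in red and sgScramble in dark blue, with the group mean ± SD in black; each table was normalised alone. Within a table the guide groups lie near each other for every partner, in contrast to Nlrc5.

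CREB1 and ATF1 are closely related basic leucine zipper factors that bind cyclic AMP response elements and the X2 box. Creb1 (ENSMUSG00000025958, chromosome 1) rose in TDMa culture, with 879 and 946 normalised counts with sgNlrc5, against 682 and 744 with sgScramble. Its ratio of means was 1.28, and the guide effect was log2 0.36 ± 0.068 (limma adjusted p = 4.5e-04), which failed without the intensity trend (adjusted p = 0.070). Melanocyte markers moved with it in TDMa culture, where 6 of 7 rose and the list summed to 202922 to 203883 with sgNlrc5 and 147031 to 149053 with sgScramble, and their part was not tested. In TDM culture Creb1 had 780 and 855 with sgNlrc5, against 832 and 868 with sgScramble, groups that overlapped (-0.06, interval -0.21 to 0.10, adjusted p = 0.87). In tumours it had 682, 681, 533 and 577 with sgNlrc5, against 663, 707, 744 and 687 with sgScramble (-0.19, interval -0.40 to 0.03, adjusted p = 0.16). The sgNlrc5 tumours spread more widely than the sgScramble tumours, and 2 of them lay among the sgScramble values.

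For Creb1 the guide effect differed between settings by direct test. It was higher in TDMa than in TDM culture by log2 0.41 ± 0.10 (interval 0.20 to 0.62, limma interaction adjusted p = 0.0043), and it was lower in tumours than in TDMa culture by -0.54 ± 0.13 (interval -0.81 to -0.27, adjusted p = 0.0033). Both passed in every alternative run on them, with adjusted p of at most 0.036 and 0.020. These were no array weights, a higher filter, a larger pseudocount, the replicate block and each library left out. The fit without the intensity trend, in which the TDMa culture call of Creb1 failed, was not run on the differences. The TDMa culture libraries enter both comparisons.

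Atf1 was not called in any table. It had 1488 and 1391 normalised counts with sgNlrc5 in TDM culture, against 1396 and 1489 with sgScramble, and 956 and 966 with sgNlrc5 in TDMa culture, against 983 and 985 with sgScramble. In tumours it had 1089, 941, 1016 and 987 with sgNlrc5, against 1007, 991, 1009 and 1026 with sgScramble. The guide effects were -0.00 (interval -0.14 to 0.13), -0.03 (interval -0.15 to 0.09) and -0.00 (interval -0.17 to 0.16).

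Counted together, 1 of 9 tested genes was called in TDM culture (Nlrc5), 4 of 9 in TDMa culture (Nlrc5, Nfyc and Creb1 higher, Nfya lower) and 3 of 10 in tumours (Nlrc5 and Ciita higher, Rfxap lower). In TDM culture 0.284% of all tested genes were called higher and 0.234% lower. The shares were 17.3% higher and 16.9% lower in TDMa culture, and 19.7% higher and 19.7% lower in tumours. In both TDMa tables the count among these genes was thus near the background of 34.2% and 39.4%. The median guide effect over the listed genes was -0.00 in TDM culture, 0.06 in TDMa culture and -0.11 in tumours, beside 0.00, -0.00 and -0.01 over all tested genes. Without Nlrc5 and Ciita, the guide effects on the partners ran from -0.21 to 0.18 in TDM culture, from -0.32 to 0.36 in TDMa culture and from -0.31 to 0.08 in tumours.

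**Figure D4:**
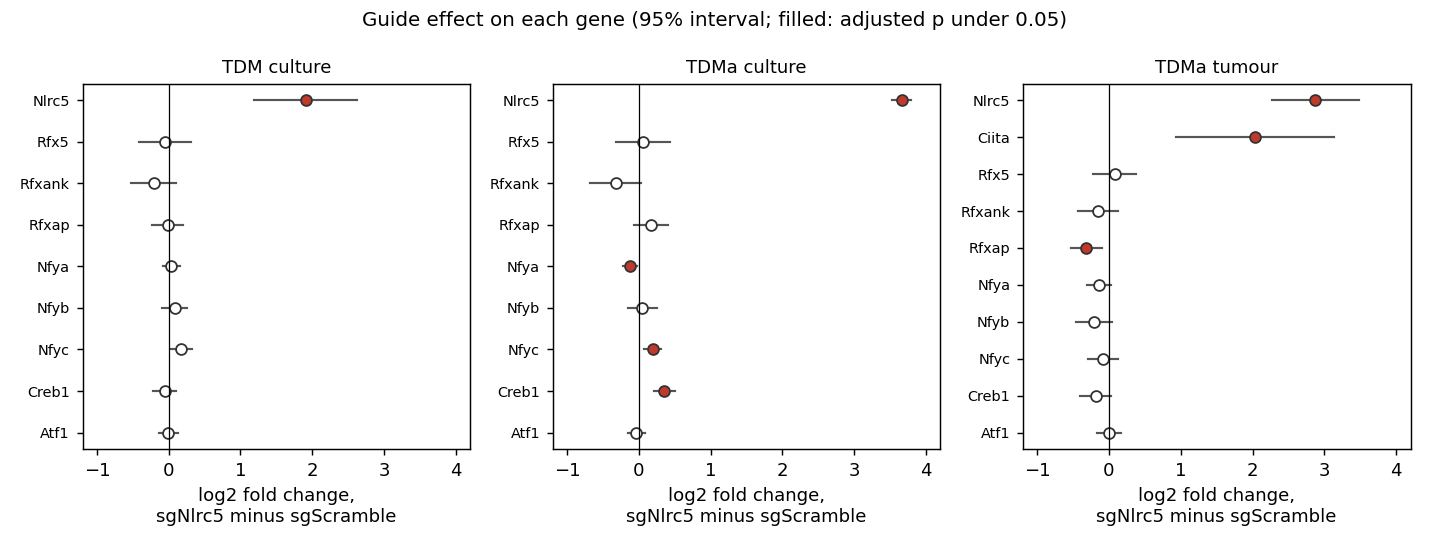
Log2 fold change of each gene, sgNlrc5 minus sgScramble, with its 95% interval, in TDM culture, TDMa culture and TDMa tumours; filled points have an adjusted p below 0.05. Nlrc5, and Ciita where listed, stand far to the right, while the 8 partners lie between -0.32 and 0.36.

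**Figure D5:**
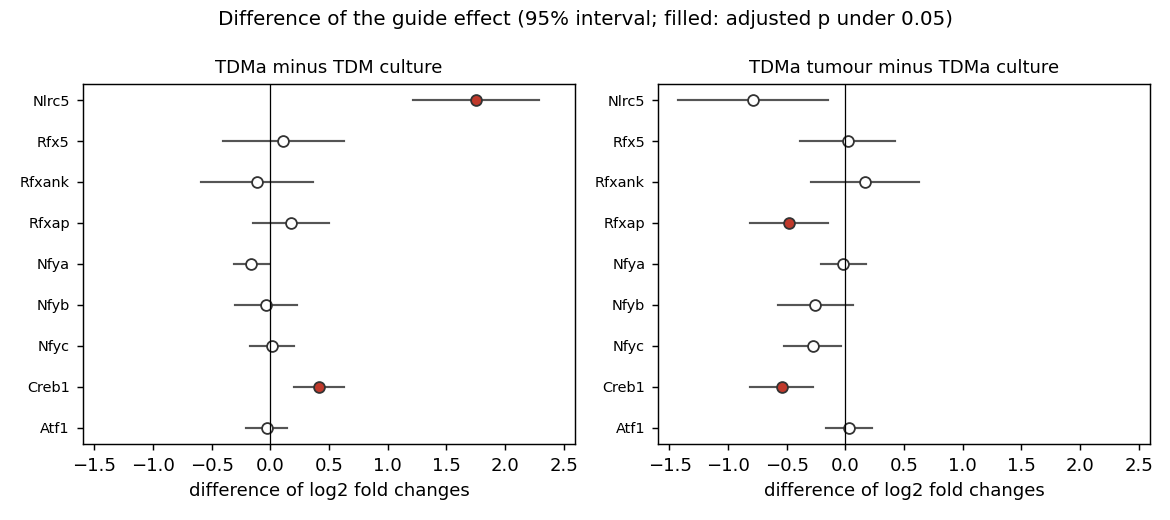
Difference of the guide effect between TDMa and TDM culture (left) and between TDMa tumours and TDMa culture (right), in log2 units with 95% intervals; filled points have an adjusted p below 0.05. Creb1 is filled in both panels, at 0.41 and -0.54, Nlrc5 in the left at 1.75 and Rfxap in the right at -0.48.

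Genes that overlap these on the other strand bear on the counts, since the kit keeps strand but the strand setting of the counting was not given. In the GENCODE vM21 annotation, 78 exonic bases of Nlrc5 are shared with 9330175E14Rik, a long noncoding RNA on the opposite strand. That RNA rose in TDMa culture (56.0 normalised counts with sgNlrc5 and 25.3 with sgScramble, log2 1.13 ± 0.29, adjusted p = 0.0053) and in tumours (271 with sgNlrc5 and 79.6 with sgScramble, log2 2.09 ± 0.49, adjusted p = 0.0062), and it was not tested in TDM culture. Ciita shares 329 exonic bases with Dexi, which was not called in any table (0.29 ± 0.16 in tumours, adjusted p = 0.18). Rfxank shares 1341 with Nr2c2ap, also not called, and Rfx5 shares 1471 with an antisense RNA that was tested in none. Whether reads of an overlapping gene entered these counts was not tested.

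Class I targets were called higher with sgNlrc5 in each table. In TDM culture 2 of 8 tested rose, H2-D1 (0.38 ± 0.050) and B2m (0.28 ± 0.050), and Tap1, a peptide transporter subunit, and Psmb9, an immunoproteasome subunit, were at 0.31 and 0.80 without a call (adjusted p = 0.40 each). The B2m call was lost when sgScramble replicate 2 was left out and, like that of H2-D1, without the intensity trend (adjusted p up to 0.52 for B2m and 0.37 for H2-D1). The list's median was 0.33, beside 0.00 over all genes. In TDMa culture 6 of 8 rose and 1 fell, with a median of 1.75. Among them H2-D1 had 3841 ± 8.68 normalised counts with sgNlrc5 and 131 ± 24.8 with sgScramble, and Psmb9 had 435 ± 20.7 with sgNlrc5 and 36.8 ± 10.3 with sgScramble (SD, n = 2 each). The one that fell was Tapbp, the peptide-loading chaperone tapasin, at -0.91 ± 0.070. In tumours 14 of 14 rose, with a median of 2.48. The 4 with the smallest p were H2-D1 (4.63 ± 0.17), H2-Q7 (2.84 ± 0.22), H2-K1 (2.35 ± 0.21) and H2-T23 (4.64 ± 0.44). Class I heavy chain genes resemble each other closely, so the split of reads among them is uncertain. The tables of both cultures did not list H2-K1, H2-Q4, H2-Q6, H2-Q7, H2-T23 or Psmb8, which were not analysed there.

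Class II targets were called higher in tumours. Of the 9 targets only H2-DMa and H2-DMb1 were listed in the cultures. H2-Aa, H2-Ab1, H2-Eb1, H2-DMb2, H2-Oa, H2-Ob and Cd74 were listed in neither culture, so they could not be called there. In TDM culture 0 of 2 tested were called, H2-DMb1 and H2-DMa, subunits of the peptide exchange factor (0.15 and 0.24, adjusted p = 0.77 and 0.83). In TDMa culture H2-DMb1 fell by 0.47 ± 0.13 (adjusted p = 0.0071), and H2-DMa was at -0.44 (adjusted p = 0.55). That H2-DMb1 call was lost in 3 of 13 alternatives (-0.60 to -0.34 over all of them, adjusted p up to 0.17), those without sgNlrc5 replicate 2, without sgScramble replicate 2 and without the intensity trend. In tumours 7 of 7 tested rose, with a median of 2.67. The invariant chain gene Cd74 had 15592 ± 4108 normalised counts with sgNlrc5 and 2332 ± 1346 with sgScramble, a guide effect of 2.95 ± 0.41 (adjusted p = 2.6e-04). The class II chains H2-Eb1 (2.98 ± 0.40) and H2-Ab1 (2.67 ± 0.38) moved by similar amounts, and H2-DMb1 by 1.68 ± 0.20. The class II sum ran from 33533 to 57667 in sgNlrc5 tumours and from 2681 to 10919 in sgScramble tumours. Between the guides the macrophage and T cell markers moved with it, and within the sgNlrc5 tumours the macrophage sum did not.

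Some inducers of the transactivators were called lower in TDMa culture and some higher in tumours. Of all tested genes 16.9% were called lower in TDMa culture and 19.7% higher in tumours. In TDM culture none of 9 was called. In TDMa culture 4 of 9 fell and none rose, among them Irf1, a factor that acts on the Ciita promoter, by 0.74 ± 0.11, Irf2 by 0.32 ± 0.11 and the interferon gamma receptor chain Ifngr2 by 0.18 ± 0.068. Of 13 alternatives, 5 lost the Irf2 call (adjusted p up to 0.35), 4 lost that of Ifngr2 (up to 0.24) and none that of Irf1. Leaving out either sgNlrc5 library or sgScramble replicate 1 was enough for Irf2, and leaving out sgNlrc5 replicate 1 or either sgScramble library for Ifngr2. In tumours 6 of 11 rose and none fell, among them Irf8, a myeloid and B cell regulator (1.67 ± 0.23), Ifngr2 (0.77 ± 0.095) and Ifngr1 (0.40 ± 0.089). Ifng itself had 16.1 ± 5.91 normalised counts with sgNlrc5 and 5.50 ± 6.26 with sgScramble in tumours (1.97 ± 0.73, adjusted p = 0.050, not below the threshold), and was not listed in culture. Between the guides the macrophage and T cell markers moved with these genes in tumours, and their part was not tested.

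Of 11 genes of coactivators and histone modifiers, 0 were called in TDM culture. Of all tested genes 34.2% were called in TDMa culture and 39.4% in tumours, and the counts for this list were near those shares. In TDMa culture 3 of 11 rose and 1 fell, Sin3a (0.21 ± 0.057), Ncoa1 (0.25 ± 0.074) and Ehmt2 (0.13 ± 0.037) upward and the acetyltransferase gene Kat2a to -0.34 ± 0.051. These calls were lost in 6 of 13 alternatives for Ehmt2 (adjusted p up to 0.21), 4 for Ncoa1 (up to 0.16), 3 for Sin3a (up to 0.076) and 1 for Kat2a (0.050). Leaving out sgScramble replicate 1 ended the upward calls of all 3. For Sin3a leaving out sgScramble replicate 2 also did, for Ncoa1 either sgNlrc5 library, and for Ehmt2 sgNlrc5 replicate 1. In tumours 1 rose, the acetyltransferase gene Kat2b (0.47 ± 0.093), and 3 fell, Hdac2 (-0.71 ± 0.072), the H3K27 methyltransferase gene Ezh2 (-0.79 ± 0.10) and Kat2a (-0.35 ± 0.084). Kat2a was thus called lower in both TDMa tables, at 1314 ± 47.5 with sgNlrc5 and 1661 ± 43.8 with sgScramble in culture, and at 1065 ± 82.8 with sgNlrc5 and 1360 ± 79.2 with sgScramble in tumours.

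Of 11 tested relatives of the DNA-binding partners, 0 were called in TDM culture. The counts for these relatives in TDMa culture and tumours were near the shares of all tested genes called, 34.2% and 39.4%. In TDMa culture 2 of 12 rose and 2 fell, Rfx7 (0.15 ± 0.052) and Atf4, a stress-response factor (0.12 ± 0.035), upward, and Creb5 (-0.83 ± 0.20) and Creb3 (-0.27 ± 0.082) downward. Of 13 alternatives, 7 lost the call of Rfx7 (adjusted p up to 0.23), 6 that of Atf4 (up to 0.19), 4 that of Creb3 (up to 0.13) and 1 that of Creb5 (0.10). Leaving out sgScramble replicate 2 ended all 4 of these calls. Leaving out sgNlrc5 replicate 2 ended those of Rfx7, Atf4 and Creb3, and leaving out sgScramble replicate 1 those of Rfx7 and Creb3. In tumours 2 rose, Creb3 (0.74 ± 0.10) and Creb5 (2.04 ± 0.40, with 62.4 ± 4.06 normalised counts with sgNlrc5 and 17.0 ± 10.7 with sgScramble), and 3 fell, Rfx3 (-0.57 ± 0.13), Atf4 (-0.45 ± 0.12, adjusted p = 0.012) and Atf2 (-0.36 ± 0.091). For Atf4 the guide effect in tumours was below that in TDMa culture, with a difference of -0.57 ± 0.13 (limma interaction adjusted p = 0.0032). Of the other NLR genes, Nod1, a sensor of bacterial cell wall fragments, fell in TDMa culture (-1.01 ± 0.23, adjusted p = 0.0023), a call lost when sgScramble replicate 2 was left out or the variances had no intensity trend (adjusted p up to 0.087). In tumours 5 of 7 tested NLR genes rose, among them the inflammasome gene Nlrp3 (1.34 ± 0.30), Nod2 (1.60 ± 0.43), Nod1 (0.53 ± 0.15) and Nlrc3 (1.31 ± 0.45). The Nlrc3 call was lost in 6 of 16 alternatives (0.78 to 1.54 over all of them, adjusted p up to 0.15), those with quantile normalisation, with the replicate block and without each of sgNlrc5 replicates 1 and 2 and sgScramble replicates 1 and 2. Nlrp3 and Nod2 are known from myeloid cells, whose markers rose in the same tumours, and their part in these values was not tested.

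Of 11333 genes tested in all 3 tables, those whose pattern over the 16 libraries lay nearest to that of Nlrc5 were class I pathway genes. The measure was the root mean square difference of log2 values, each taken relative to the sgScramble mean of its table. It was 0.51 for Psmb9, 0.71 for H2-M3, 0.85 for Tap1, 1.11 for B2m and 1.17 for H2-D1. For Ciita, over the 8 tumour libraries and 13384 genes, it was 0.21 for Apol9b, 0.22 for Cd40, a receptor on antigen-presenting cells, 0.22 for 9330175E14Rik, 0.27 for H2-DMa and 0.29 for AW112010. The RNA that overlaps Nlrc5 was thus among the 5 nearest to Ciita. The class II genes H2-Aa and Cd74 ranked 117 and 207 by this measure, on which a gene with a larger change than that of Ciita is far from it.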

How the data were processed

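Per the file headers and the labels, the deposited values were log2 of the authors' DESeq2-normalised count plus 1, with a separate table for each setting. Tools named in the submitters' processing notes were STAR 2.7.10a, DESeq2 1.36.0 and FastQC 0.12.0, with GRCm39 and mm39 as builds. Neither the counting tool nor its settings are named in the sources used here. The log was undone to obtain normalised counts. Low values were whole multiples of 1 step (tolerance 0.1, multiples up to 2000), which gave the reads. Tables were fitted separately for genes with a mean of at least 10 (11989, 12138 and 13385 genes), using limma 3.58.1 under R 4.3.3. The response was log2(normalised count + 1), variances followed an intensity trend, the contrast was sgNlrc5 minus sgScramble, and two-sided p-values were adjusted over all tested genes by Benjamini-Hochberg. This scale understates changes of low genes. Differences between settings were limma interactions with array weights per table. Lengths came from GENCODE vM21, promoters from RefSeq. Alternatives were other pseudocounts, filters, scalings and variance models, a replicate block, each library left out, and voom on recovered reads, which was added after seeing the data. Differences between settings were not refitted with other scalings, without the intensity trend or with voom. The fits were tested on simulated data. Named genes were the 10 genes, up to 4 per pathway list and table with the smallest p, and the 5 nearest in pattern. Tapbp, Ifng, Atf4 in tumours, the immune markers listed in culture and the overlapping genes were named after their values were seen. The genes and lists were chosen with earlier results of these data known. Some genes of these lists are not reported here.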

Additional observations from a re-analysis of the deposited data

Results flagged for a closer look

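Values are given here for the 4 differences of the guide effect, over Nlrc5 and its 8 partners, that passed the limma interaction test after adjustment over all genes. For Nlrc5 the effect was 3.66 in TDMa culture and 1.91 in TDM culture, a difference of log2 1.75 (adjusted p = 1.4e-05). For Creb1 it was 0.36 in TDMa culture and -0.06 in TDM culture, a difference of 0.41 (adjusted p = 0.0043). In TDMa tumours the guide effect on Creb1 was -0.19, which lay -0.54 from that in TDMa culture (adjusted p = 0.0033). The guide effect on Rfxap was -0.31 in TDMa tumours and 0.17 in TDMa culture, a difference of -0.48 (adjusted p = 0.023). The share of all genes passing was 22.7% for the lines and 36.6% for tumour against culture. No tumour library stood apart from the other 3 of its guide by Dixon's test in any of the 20 groups tested.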

How the results depend on the processing

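Nlrc5 in TDMa culture and tumours, and Ciita in tumours, kept direction and call in every alternative run on them. Without the intensity trend, TDM culture had 2 genes and 0 of the 9 genes called, with Nlrc5 at 1.91 (adjusted p = 0.38), and TDMa culture had 1581 genes and 1 of the 9. With a mean of at least 50, Nlrc5 was not tested in TDM culture, and 0 of the others were called. Leaving out 1 library gave 62 to 146 genes, 0 to 1 of the 9 and Nlrc5 at 1.51 to 2.31 in TDM culture, and 2512 to 3335 genes and 2 to 3 of the 9 in TDMa culture. Without array weights, 2799 genes differed between tumours and TDMa culture. The cause of these changes was not tested. Guide effects near 0 turned sign: with quantile normalisation TDM Atf1 (0.0057), tumour Rfx5 (-0.036) and tumour Atf1 (0.059), and with voom TDMa Nfyb (-0.0063). Leaving out 1 library moved TDM Rfxap over -0.078 to 0.053, Nfya over -0.0012 to 0.078, Creb1 over -0.12 to 0.0095 and Atf1 over -0.052 to 0.045, TDMa Rfx5 over -0.023 to 0.15 and Nfyb over -0.055 to 0.15, and tumour Atf1 over -0.040 to 0.031. Differences between the lines then ran over -0.36 to 0.13 for Rfxank, -0.14 to 0.069 for Nfyb, -0.050 to 0.081 for Nfyc and -0.079 to 0.018 for Atf1. Differences between tumour and culture ran over -0.067 to 0.10 for Rfx5, -0.077 to 0.41 for Rfxank, -0.060 to 0.011 for Nfya and -0.0060 to 0.064 for Atf1. Same-numbered libraries deviated with r = -0.061 in TDM culture, 0.017 in TDMa culture and -0.22, 0.15, -0.26 and -0.020 in tumours. Differently numbered tumours ran from -0.24 to 0.30. With 2 libraries per guide, r of other pairs is the same-numbered r with its sign turned. This check therefore cannot decide whether same-numbered libraries were paired, which the labels do not state. With the replicate block TDM culture had 122 genes called, tumour Rfxap had adjusted p = 0.066, and the Nlrc5 difference between tumour and culture had adjusted p = 0.012. The cultures had 2 libraries per guide, and Nlrc5 in TDM culture rested on 12 to 83 reads a library.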
